A study of Mus musculus with 2 samples.

Results

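The genes described here carry a cell through mitosis. They encode Cdk1 and its cyclins, the Aurora and Polo-like kinases, the spindle checkpoint, the kinetochore, mitotic motors, cytokinesis proteins and condensin. The list of 46 genes was set by function rather than by a threshold on the measured values, though earlier results of these data were known when it was chosen. Of these, 45 had a probe set that the platform annotation assigns to a single gene, out of 19938 such genes on the array. Ccnb1, which encodes cyclin B1, was not analysed here.

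Dermal cells of newborn C57BL/6 pups, taken from the back skin, were grown for 24 h in medium with fetal bovine serum and transfected with 10 nM siRNA, a short double-stranded RNA that guides the cutting of transcripts it matches. A single array held the cells given a control siRNA, and another held the cells given siRNAs against β-catenin, the effector of canonical Wnt signalling and a component of cell junctions. RNA was taken after 48 h, and 300 ng of it per sample was labelled and hybridised to an Affymetrix array that probes whole transcripts. The labels do not give the number of pups or cultures behind each array, the siRNA sequences or any sorting of the cells. Since each group has 1 array, every difference below is a single subtraction, its spread between cultures is unknown, and no p-value, SD or standard error can be given.

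Entry into mitosis is driven by Cdk1 bound to cyclins A and B. Condensin and topoisomerase II then compact and disentangle the chromosomes, kinetochores attach them to spindle microtubules, and the spindle checkpoint holds back the anaphase-promoting complex until every chromosome is attached. Transcripts of these genes accumulate in G2 and mitosis, so in a mixed culture their level moves with the share of dividing cells as well as with the amount per cell. A change in the share of dividing cells and a change in RNA per cell cannot be told apart in RNA from a whole culture.

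Many of these genes are known to share a promoter element, the cell cycle homology region, bound by the MuvB complexes that repress the genes in resting cells and activate them before mitosis, and upstream CCAAT boxes bound by NF-Y. The promoter windows of 7 members are printed to show where these letters lie. Of these, Mki67 and Top2a had the most positive differences, and Aurka and Bub3 the most negative, among members with a promoter sequence. Cdk1, Ccnb2 and Plk1 encode central regulators that hold both elements. Each window runs from 250 bases before to 50 after the annotated start, 5′ to 3′ on the gene's own strand, from RefSeq on GRCm38.p6. Capitals mark the letters of the homology region (TTTGAA or its reverse complement TTCAAA, and TTTAAA) and of the CCAAT box (CCAAT or ATTGG).
Mki67: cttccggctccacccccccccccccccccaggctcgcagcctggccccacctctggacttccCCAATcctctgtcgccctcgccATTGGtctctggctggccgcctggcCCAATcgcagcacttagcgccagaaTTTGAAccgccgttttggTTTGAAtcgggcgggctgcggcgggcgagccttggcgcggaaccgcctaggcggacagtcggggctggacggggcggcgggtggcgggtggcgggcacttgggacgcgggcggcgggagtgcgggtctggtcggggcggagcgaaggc
Top2a: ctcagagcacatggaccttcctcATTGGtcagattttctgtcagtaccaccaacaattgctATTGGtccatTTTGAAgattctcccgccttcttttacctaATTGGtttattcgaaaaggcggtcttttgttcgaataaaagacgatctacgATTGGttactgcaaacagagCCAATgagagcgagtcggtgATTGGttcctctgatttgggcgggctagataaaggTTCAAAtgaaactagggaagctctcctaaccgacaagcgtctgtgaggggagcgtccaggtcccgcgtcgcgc
Aurka: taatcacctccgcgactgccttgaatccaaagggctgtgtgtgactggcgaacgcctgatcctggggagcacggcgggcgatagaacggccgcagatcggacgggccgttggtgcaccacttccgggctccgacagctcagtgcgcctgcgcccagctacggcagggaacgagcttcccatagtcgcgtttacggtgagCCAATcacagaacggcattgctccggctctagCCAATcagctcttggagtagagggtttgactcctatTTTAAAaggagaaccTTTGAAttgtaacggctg
Bub3: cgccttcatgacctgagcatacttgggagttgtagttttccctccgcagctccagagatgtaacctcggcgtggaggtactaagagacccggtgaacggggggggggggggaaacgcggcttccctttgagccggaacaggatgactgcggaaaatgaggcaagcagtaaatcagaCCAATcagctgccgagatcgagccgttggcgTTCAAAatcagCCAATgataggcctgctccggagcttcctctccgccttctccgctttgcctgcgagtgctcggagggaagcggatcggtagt
Cdk1: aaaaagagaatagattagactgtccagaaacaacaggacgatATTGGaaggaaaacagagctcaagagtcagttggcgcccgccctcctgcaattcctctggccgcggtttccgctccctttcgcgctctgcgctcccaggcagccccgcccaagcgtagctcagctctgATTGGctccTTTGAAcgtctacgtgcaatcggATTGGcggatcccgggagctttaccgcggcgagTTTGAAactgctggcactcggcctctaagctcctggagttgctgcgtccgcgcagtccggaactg
Ccnb2: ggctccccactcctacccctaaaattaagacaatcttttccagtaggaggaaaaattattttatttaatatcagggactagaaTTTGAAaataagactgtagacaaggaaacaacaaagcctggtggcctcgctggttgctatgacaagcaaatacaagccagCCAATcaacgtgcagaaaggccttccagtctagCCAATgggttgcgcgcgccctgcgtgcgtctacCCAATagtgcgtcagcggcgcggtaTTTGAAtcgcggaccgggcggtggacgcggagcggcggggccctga
Plk1: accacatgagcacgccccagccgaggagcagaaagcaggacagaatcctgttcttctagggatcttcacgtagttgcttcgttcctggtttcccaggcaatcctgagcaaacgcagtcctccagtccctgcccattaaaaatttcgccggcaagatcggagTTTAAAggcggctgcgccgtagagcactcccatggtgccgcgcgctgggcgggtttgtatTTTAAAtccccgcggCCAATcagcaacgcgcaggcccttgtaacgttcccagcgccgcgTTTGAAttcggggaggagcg
The windows lie at chr7:135716330-135716629 (minus strand) for Mki67, chr11:99024140-99024439 (minus strand) for Top2a, chr2:172370521-172370820 (minus strand) for Aurka and chr7:131560120-131560419 (plus strand) for Bub3. Those of Cdk1, Ccnb2 and Plk1 lie at chr10:69352863-69353162 (minus strand), chr9:70421505-70421804 (minus strand) and chr7:122159185-122159484 (plus strand).

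A promoter window was found for 38 of the 46 members. It was not found for Aurkb, Ccna2, Cdc25c, Incenp, Kif20a, Smc4, Spc24 and Tpx2. Homology region letters on either strand were present in 32 of the 38 members (84.2%), against 30.6% of all 27025 genes with a window of the same length and 21.7% of the 8279 such genes kept on the array. CCAAT letters on either strand were present in 28 of the 38 (73.7%), against 41.1% of all genes and 42.9% of kept genes. Both motifs were found in 27 members (71.1%), against 12.2% of all genes and 8.78% of kept genes. Neither was found in the windows of Mad2l1, Ncaph, Nuf2, Nusap1 and Pttg1. For 3 members the table held 2 start sites, and either could count. Such matches describe letters in a window and are not binding sites. In all member windows a single homology region match overlapped a CCAAT match, in Cdca8.

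Most homology region matches lay close to the start. Of 48 matches in the first listed window of each member, 34 lay within 50 bases of the start, with a median position of -16, where negative positions are upstream. The CCAAT matches lay further upstream, with a median of -67 over 61 matches. Positions were summarised for members only, so whether matches in other genes lie differently was not tested. In Ccnb2 the homology region match nearest the start was at 4, and CCAAT matches stood at -21, -54 and -87. In Cdk1 the nearest homology region match was at -15, with matches of the other motif at -48, -80 and -208. The order was not the same in every window, as Bub3 and Plk1 each had a CCAAT match, at -32 and -14, downstream of a homology region match, at -43 and -29. In Mki67 all matches, from -188 to -98, lay upstream of the annotated start.

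**Figure D1:**
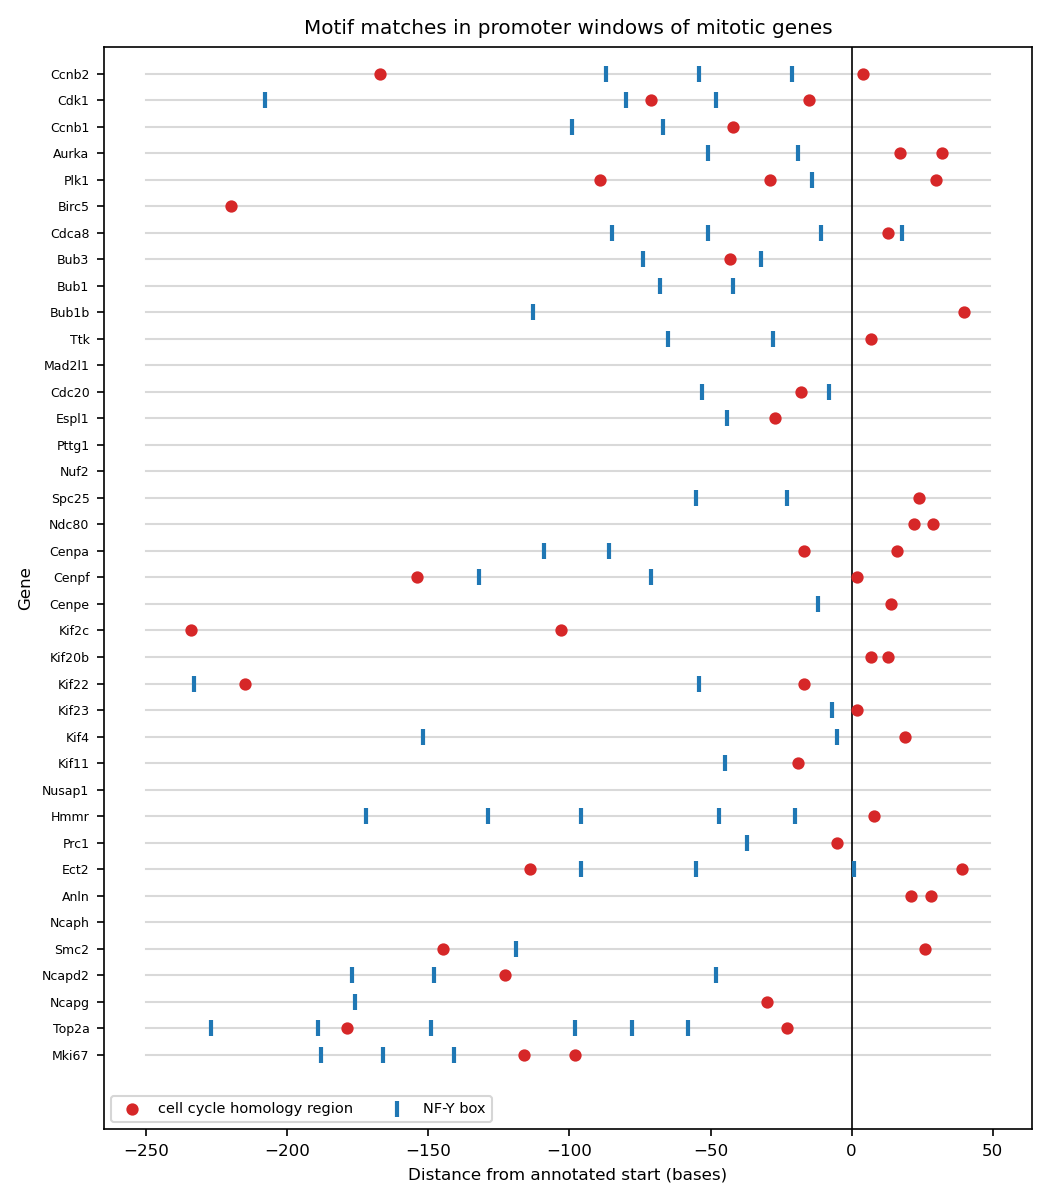
Positions of motif matches in the promoter windows of the 38 members with a sequence, in bases from the annotated start (vertical line). Circles are homology region matches, with a median at -16, and bars are matches of the box bound by NF-Y, with a median at -67. Each grey line is a window from 250 bases before to 50 after the start, and only the first listed start of a gene is drawn.

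The target transcript was lower on the β-catenin siRNA array. Ctnnb1, which encodes β-catenin, went from 10.48 with control siRNA to 9.34 with β-catenin siRNA on the log2 scale, leaving 45.2% of the control signal. Values are log2 robust multi-array average (RMA) values, whose scaling makes the arrays alike as a whole, so each difference is relative to all other probe sets. A gene was kept for counting if the higher of its 2 values reached 5.13, the median of all gene means, which left 10197 genes. All 45 measured members were kept, and each of them reached that level on both arrays. All 11 fibroblast markers also reached that level on both arrays and were kept. Col1a1 had 12.77 and 12.71 and Pdgfra 9.83 and 10.58 on the control and β-catenin siRNA arrays.

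As a group, the mitotic genes stood slightly higher after β-catenin siRNA. Of the 45 members, 35 were higher by any amount, 9 were lower and 1 was listed at the same value, whereas 45.8% of all kept genes were higher and 52.8% lower. The median difference was 0.13 on the log2 scale, against -0.02 over all kept genes. Differences were small. The interquartile range of the members was 0.03 to 0.17, and all members lay between -0.24 and 0.53. At least 1.2-fold higher were 8 members, against 11.7% of all kept genes, and none was at least 1.2-fold lower, against 13.7%. None differed by 1.5-fold, where the shares over all kept genes were 2.76% higher and 1.84% lower. Kept genes within the members' range of mean level, 5.23 to 8.58, gave nearly the same shares, with 46.1% higher and 11.8% at least 1.2-fold higher. The share of members at least 1.2-fold higher was 17.8%. As a guide to scale only, probe sets that measure the same gene disagreed in their difference with a pooled SD of 0.16 over 594 genes, and 25 of the 45 members (55.6%) lay closer to 0 than that, against 52.5% of all kept genes.

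**Figure D2:**
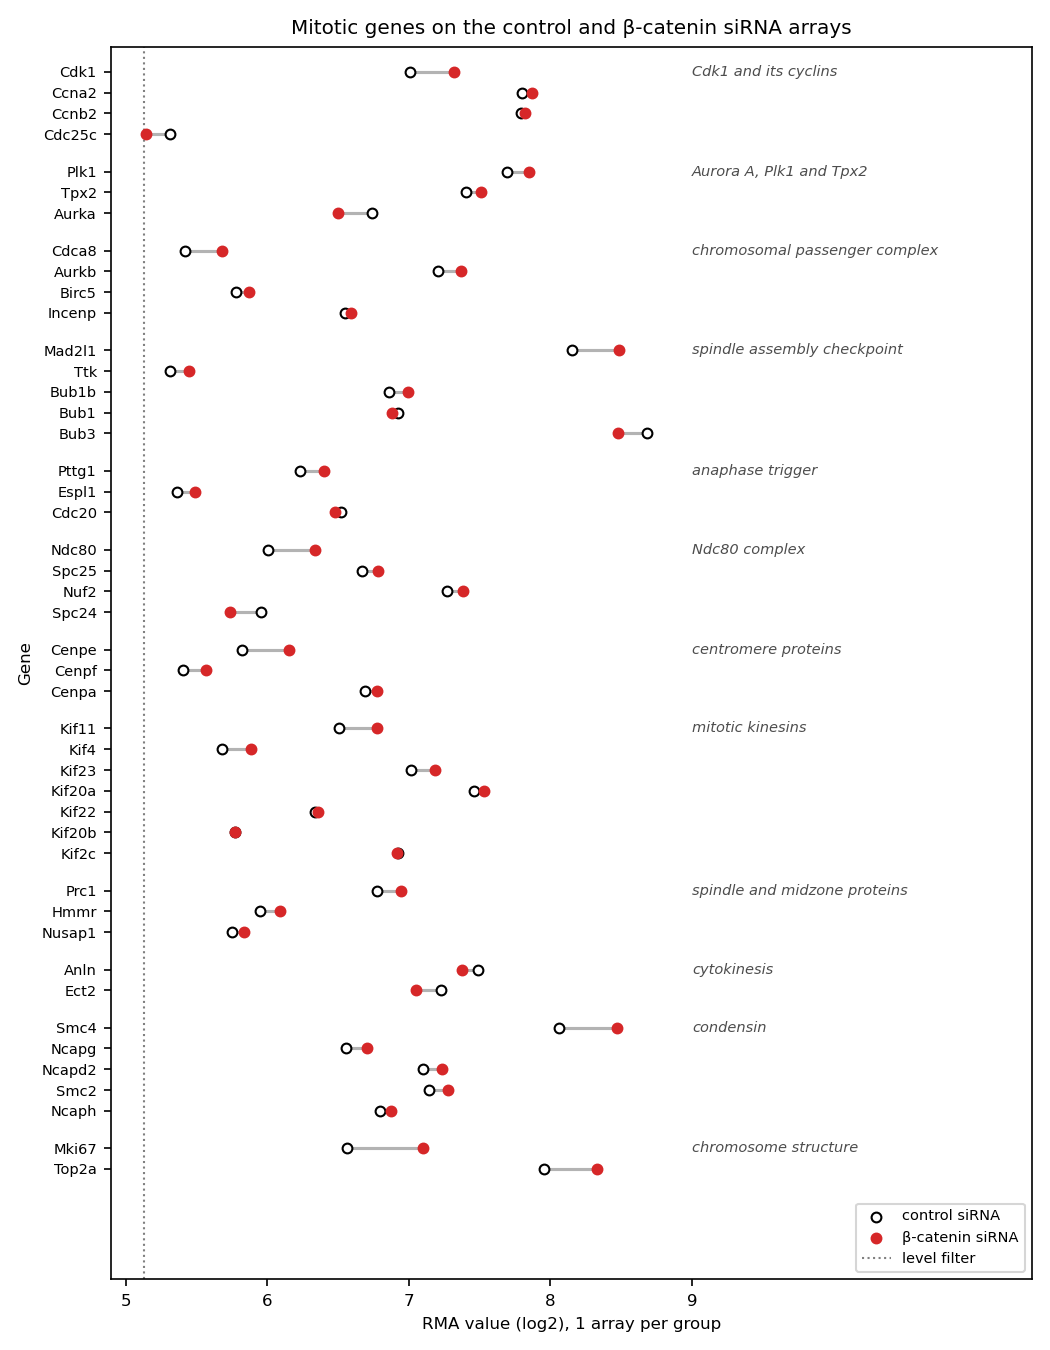
RMA value (log2) of each of the 45 measured members on the control siRNA array (open circles) and the β-catenin siRNA array (filled circles), 1 array per group, grouped by complex or role. In 35 genes the filled circle lies to the right, most by a short distance, and the lowest value, for Cdc25c at 5.14, still lies above the level filter (dotted line).

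Of the kinase that starts mitosis and its partners, Cdk1 differed most. Cdk1, the catalytic subunit, had 7.01 with control siRNA and 7.32 with β-catenin siRNA, a 1.24-fold higher value. Its cyclins differed little. Ccna2, which encodes the cyclin of S phase and G2, went from 7.80 to 7.87, and Ccnb2, which encodes cyclin B2, from 7.79 to 7.82. Cdc25c, the phosphatase that removes inhibitory phosphates from Cdk1, was the lower member of the group, with 5.32 and 5.14. Its β-catenin siRNA value lay just above the level filter. Thus the kinase gene stood 0.31 higher on the log2 scale while both measured cyclins were within 0.08.

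The kinases of spindle assembly pointed both ways. Plk1, Polo-like kinase 1, which acts at centrosomes and kinetochores, had 7.69 with control siRNA and 7.85 with β-catenin siRNA. Tpx2, the microtubule protein that binds and activates Aurora A, had 7.41 and 7.51. Aurka, which encodes Aurora A itself, had 6.74 and 6.50, and its difference of -0.24 was the lowest of all 45 members. A difference as low as that of Aurka was seen in 16.0% of kept genes.

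All 4 genes of the chromosomal passenger complex were higher, with a median of 0.13. This complex corrects faulty attachments at centromeres and later moves to the spindle midzone. Aurkb, its kinase Aurora B, had 7.21 with control siRNA and 7.37 with β-catenin siRNA. Cdca8, which encodes borealin, had 5.42 and 5.68, just short of 1.2-fold. Birc5, which encodes survivin, differed by 0.09, and Incenp, the scaffold that activates Aurora B, by 0.04. Aurora A and Aurora B genes thus lay on opposite sides of 0.

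Of 5 checkpoint genes, 3 were higher and 2 lower. Mad2l1, which encodes Mad2, the protein that blocks Cdc20 while a kinetochore is unattached, had 8.15 with control siRNA and 8.48 with β-catenin siRNA, 1.26-fold higher. Bub3, which brings Bub1 and BubR1 to kinetochores, had 8.68 and 8.48. Ttk, the kinase that starts the checkpoint signal, had 5.31 and 5.45. Bub1b, which encodes BubR1, went from 6.86 to 6.99. The kinase gene Bub1 was close to level, at 6.92 and 6.88. The median of the 5 genes was 0.13.

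The genes that trigger anaphase differed by less than 1.2-fold. Pttg1, which encodes securin, the inhibitor of separase, had 6.23 with control siRNA and 6.40 with β-catenin siRNA. Espl1, which encodes separase, the protease that cuts cohesin, had 5.36 and 5.49. Cdc20, the activator of the anaphase-promoting complex, had 6.52 and 6.48. Securin and separase genes were both slightly higher, and Cdc20 was not.

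Within the Ndc80 complex, the rod that links kinetochores to microtubules, 3 of 4 genes were higher. Ndc80 had 6.00 with control siRNA and 6.34 with β-catenin siRNA, 1.26-fold higher. Its partner Nuf2 had 7.27 and 7.38, and Spc25, a subunit at the inner end of the rod, had 6.67 and 6.78. Spc24, the binding partner of Spc25, had 5.95 and 5.74, a difference of -0.22. Spc24 and Ndc80 thus lay on opposite sides of 0. The centromere genes were all higher. Cenpe, a kinetochore motor, went from 5.82 to 6.15, while Cenpf, a large kinetochore protein, differed by 0.16 and Cenpa, the centromeric histone H3 variant, by 0.09.

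Of 7 mitotic kinesin genes, 5 were higher, 1 was lower and 1 was at the same value. Kif11, which encodes the motor that pushes spindle poles apart, had 6.51 with control siRNA and 6.78 with β-catenin siRNA, 1.21-fold higher. Kif4, a chromosome-bound motor, had 5.68 and 5.89, and Kif23, the motor of the centralspindlin complex, had 7.02 and 7.19. The other kinesin genes were nearly level. Kif20a, needed for cytokinesis, differed by 0.07, Kif22, which pushes chromosome arms away from the poles, by 0.02, and Kif2c, a microtubule depolymerase, by -0.01, which turned to 0.01 when the differences were centred. Kif20b was listed at 5.77 on both arrays. Exactly equal values occurred in 140 of the kept genes (1.37%).

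Spindle and midzone genes were all higher by a small amount. Prc1, the bundler of midzone microtubules, had 6.77 with control siRNA and 6.95 with β-catenin siRNA. Hmmr, a spindle pole protein, differed by 0.14, and Nusap1, which binds microtubules near chromosomes, by 0.08. Both genes of the cytokinesis group were lower. Ect2, the exchange factor that activates RhoA at the division plane, had 7.23 and 7.05, and Anln, which encodes the contractile ring scaffold anillin, had 7.49 and 7.38. This was the only group of the 12 with a negative median, at -0.14, and it held only 2 genes. Kif20a, which is also needed for cytokinesis, was counted with the kinesins and differed by 0.07.

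All 5 condensin genes were higher, with a median of 0.13. Condensin is a ring of Smc2 and Smc4 closed by Ncaph and carrying Ncapd2 and Ncapg. Smc4 had 8.06 with control siRNA and 8.47 with β-catenin siRNA, 1.33-fold higher. Its partner Smc2 went from 7.14 to 7.27. The regulatory subunit genes Ncapg, Ncapd2 and Ncaph differed by 0.15, 0.13 and 0.08. Smc4 therefore stood 0.41 higher while the rest of the complex lay between 0.08 and 0.15.

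The most positive difference of all members was that of Mki67. Mki67, which encodes the proliferation marker Ki-67, a coat protein of mitotic chromosomes, had 6.56 with control siRNA and 7.10 with β-catenin siRNA, 1.45-fold higher. A difference as high was seen in 3.22% of kept genes. Top2a, the topoisomerase that untangles sister chromatids, had 7.96 and 8.33, 1.30-fold higher, and a difference as high was seen in 6.37% of kept genes. A dim probe set for Top2a, at 1.24 and 1.29, was also on the array and was not the one used. The 8 members at least 1.2-fold higher were Mki67, Smc4, Top2a, Ndc80, Cenpe, Mad2l1, Cdk1 and Kif11. They came from 7 of the 12 groups.

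**Figure D3:**
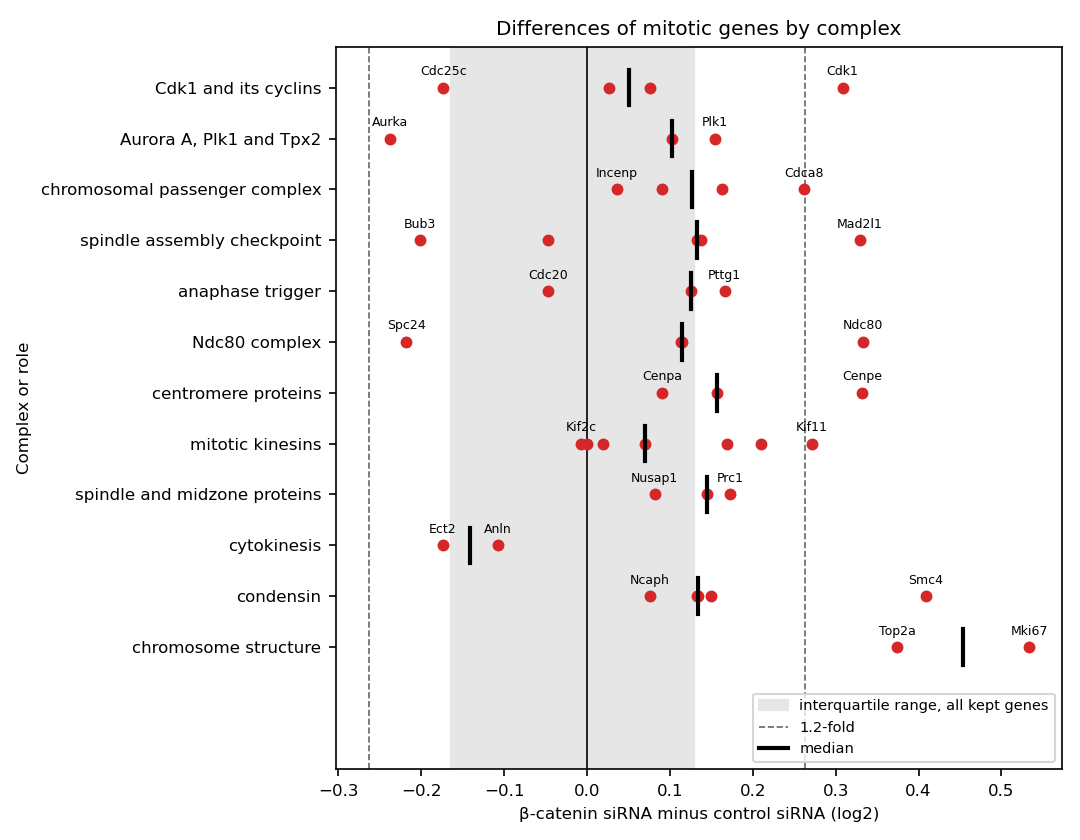
Difference between the β-catenin siRNA and control siRNA arrays (log2) of each member, by complex or role, with the group median as a black bar and the highest and lowest gene named. Dashed lines mark 1.2-fold and the grey band is the interquartile range of all 10197 kept genes. Medians of 11 groups lie above 0, from 0.05 to 0.45, and cytokinesis lies at -0.14.

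Members with and without the promoter motifs overlapped in their differences. The median was 0.14 for the 26 kept members with both motifs and 0.08 for the 11 that lacked at least 1 of them. Their ranges were -0.24 to 0.53 and -0.11 to 0.33. Mad2l1, with neither motif in its window, and Mki67, with both, each stood among the 8 genes past 1.2-fold, while Aurka, also with both, had the lowest difference.

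Pooled over 4 further lists of mitotic genes, genes outside the members had a median nearer to that of all kept genes. The medians of the single lists ran from 0.04 to 0.18, the highest being that of condensin II and cohesin. In 4 further lists of mitotic genes, 65 of 102 kept genes were higher and 35 lower, with a median of 0.08, and 17 lay past 1.2-fold upwards and 5 past it downwards. Among 25 kept kinetochore and checkpoint genes the median was 0.11, and the 4 genes with the largest differences were all higher. These were the inner kinetochore gene Cenpq (5.31 and 5.98 on the control and β-catenin siRNA arrays), the Cenpa-loading factor gene Mis18a (6.60 and 7.16), Cenph (5.99 and 6.52), and Knl1 (5.81 and 6.31), the platform for Bub proteins. Of these, Cenpq was past 1.5-fold, at 1.60-fold.

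The kinase, phosphatase and anaphase-promoting complex list was closer to level, with a median of 0.04. Of its 33 kept genes, 21 were higher (63.6%, against 45.8% of all kept genes). Plk4, the kinase of centriole duplication, differed by 0.43, Fbxo5, an inhibitor of the anaphase-promoting complex, by 0.43, and Mastl, which restrains the phosphatase that opposes Cdk1, by 0.34. Anapc15, a subunit of the anaphase-promoting complex, differed by -0.51. In the list of further spindle, kinesin and cytokinesis genes, 17 of 29 kept genes were higher (58.6%), with a median of 0.09. Its leading genes were Haus5 (0.61) and Haus6 (0.37), subunits of augmin, which branches spindle microtubules, with Numa1 (0.38), which anchors spindle poles, and Dlgap5 (0.36), a spindle protein.

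Condensin II and cohesin genes were mostly higher, as were those of condensin I. Of 15 kept genes, 12 were higher (80%, against 45.8% of all kept genes) and 2 lower. The median was 0.18 and none was past 1.5-fold. The cohesin subunit gene Stag2 had 7.22 with control siRNA and 7.56 with β-catenin siRNA. Pds5b, a cohesin regulator, differed by 0.27, the condensin II subunit gene Ncapg2 by 0.27 and the cohesin ring gene Smc3 by 0.21.

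Regulators of mitotic gene transcription had no common direction, with 11 of 21 kept genes higher (52.4%, against 45.8% of all kept genes) and 10 lower. At least 1.2-fold higher were 6 (28.6%, against 11.7%) and at least 1.2-fold lower were 2 (9.52%, against 13.7%). Rbl2, which encodes the p130 pocket protein of the repressive complex in resting cells, had 6.88 with control siRNA and 7.50 with β-catenin siRNA, 1.54-fold higher. Tfdp2, a dimerisation partner of E2F factors, differed by 0.52. The repressors E2f8 and E2f7, which are expressed in S phase and G2, differed by 0.44 and 0.40. Some further regulators are named here although chosen after their values were seen. E2f4 and Rb1, the 2 that were at least 1.2-fold lower, differed by -0.34 and -0.33. The activators Foxm1 and Mybl2 differed by 0.25 and -0.13. The NF-Y subunit genes Nfya, Nfyb and Nfyc differed by 0.12, -0.18 and -0.10.

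DNA replication genes, which act in S phase, were mostly higher as well. Of 37 kept genes, 32 were higher and 4 lower, with a median of 0.17, and 9 lay past 1.2-fold upwards and 1 downwards. That was 86.5% higher, with 24.3% and 2.70% past 1.2-fold upwards and downwards, against 45.8%, 11.7% and 13.7% of all kept genes. Whether replication and mitotic genes differed from each other was not tested, since there is 1 array per group. The leading replication genes were Prim1 (0.54) and Pola1 (0.39), of DNA polymerase α-primase, Cdc6 (0.42), which loads the replicative helicase, and Tyms (-0.47), thymidylate synthase. Among 14 kept G1 and S cyclins, kinases and inhibitors, 8 were higher (57.1%) and 6 lower. Cdkn2a and Cdkn2b, inhibitors of the G1 kinases, differed by -1.10 and -1.05, Cdkn1c by 0.76 and Ccnd1 by -0.52. Of the 174 kept genes in these 7 lists, Nsl1, Oip5, Ccne2 and Gins1 reached the level filter on only 1 array.

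**Figure D4:**
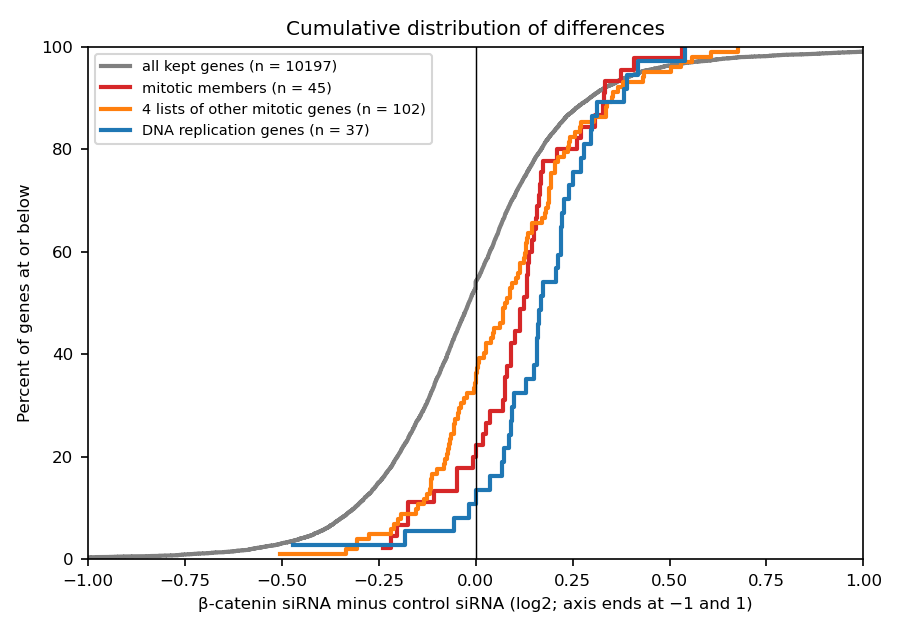
Percent of genes at or below each difference between the β-catenin siRNA and control siRNA arrays (log2), for all 10197 kept genes, the 45 members, 102 kept genes of 4 other mitotic lists and 37 kept DNA replication genes. The medians stand at -0.02, 0.13, 0.08 and 0.17 in that order, and the curves are drawn from -1 to 1.

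Markers of other cell types that a dermal culture can hold also differed between the arrays. All 13 keratinocyte markers were measured, of which 11 were higher, 1 was lower and 1 was listed at the same value, with a median of 0.20. Without the level filter, 41.6% of all 19938 genes were higher. The sum of the keratinocyte marker values on the linear scale was 922 with control siRNA and 1388 with β-catenin siRNA. Krt5 had 7.64 and 8.65 and Krt14 had 8.03 and 8.65. Only 7 of the 13 reached the level filter on both arrays, and Epcam reached it on the β-catenin siRNA array alone. The other 5 were under it on both, among them Krt15, the lower marker, at 4.30 and 3.75, and Krt10, at 4.96 on each. The fibroblast markers had a median difference of 0.11, with 7 of 11 higher and sums of 28681 and 30594. Markers of other types mostly lay under the filter, where differences rest on dim signal. Pericyte and smooth muscle markers were an exception, since 4 of 8 reached it on both arrays. Over all measured markers, 4 of 9 endothelial genes were higher and 3 lower (median 0), and 3 of 10 macrophage and myeloid genes were higher and 7 lower (median -0.18). None of these reached the filter on both arrays, since Kdr did so with control siRNA only and Lyz2 with β-catenin siRNA only. Of 7 melanocyte markers 6 were lower and 1 was higher (median -0.27). With control and β-catenin siRNA, Tyrp1 had 5.78 and 5.41 and Dct 5.18 and 5.16, and these 2 reached the filter on both arrays. Pmel, at 5.34 and 5.07, reached it with control siRNA only. Of 8 pericyte and smooth muscle markers 4 were lower and 3 higher (median -0.16). Of these 8, Myh11, Mcam, Notch3 and Cspg4 reached the filter on both arrays. With control and β-catenin siRNA, Myh11 had 8.20 and 7.52, Mcam 9.05 and 8.63, Notch3 5.79 and 5.47, and Cspg4 5.91 and 6.10. The linear sums over all 8 were 1007 and 754. No measured Schwann cell marker (5, median 0.11) or skeletal muscle marker (8, median -0.05) reached the filter. The part of these cells in the shift of the mitotic genes was not tested.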

How the data were processed

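Gene expression was measured on 2 arrays, 1 per group. The authors deposited log2 values per probe set made with RMA, per the submitters' processing notes; the sources used here name no software version, genome build or filter. The log2 scale was judged from the values, 0.485 to 13.5. Of 28944 probe sets, 21789 had 1 gene symbol in the platform annotation, 1621 several and 5534 none. Symbols were updated by gene identifier through a RefSeq table (GRCm38.p6) for 21698 of them. Each gene was represented by its probe set of highest mean over the arrays. Differences are β-catenin siRNA minus control, computed with pandas 2.3.3 and numpy 2.4.6, and the counting code was tested on simulated data. Depth is not defined for arrays, whose number limits the precision. The members and lists were chosen with earlier results of these data known. All members could be named, and in each further pathway list the 4 kept genes with the largest absolute difference; in marker lists defining genes were named, and Krt15 and Krt10 after their values were seen. Alternatives were lowess (span 0.3, statsmodels 0.14.6) or median centring, the mean of probe sets, no level filter, a stricter one (75th percentile of gene means, 7.12) and probe sets with several symbols.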

Additional observations from a re-analysis of the deposited data

How the results depend on the processing

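No replicate could be left out, and no paired analysis was possible because each group had 1 array. Under all 6 alternatives the members' median difference and each group's median kept its sign wherever the group still had kept members. The stricter level filter kept 17 members, of which 14 were higher and 4 at least 1.2-fold higher. These counts moved because fewer genes were counted. Of all 5258 genes kept by that filter, 44.1% were higher and 9.34% at least 1.2-fold higher. Only Kif2c changed sign, to 0.010 with lowess centring and 0.011 with median centring. Kif20b, level in the report, was above 0 with either centring, and 82.2% of members were then higher, against 50.8% of all kept genes with lowess centring. With the mean of probe sets Top2a fell under the level filter, because its dim probe set pulled its mean down, and 44 members were kept. Without detection calls or probe intensities, no value can be placed above or below background.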
